A study of Mus musculus with 7 samples.

Results

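CD4+ T cells of Scurfy mice were compared with those of wild-type mice, gene by gene. The comparison holds 4 of the 7 arrays of the study, namely the 3 arrays titled as Scurfy (called Sf 1, Sf 2 and Sf 3) and the single wild-type array (called B6), and the members are all genes read by a probe set with 1 gene symbol. B6 was a male C57BL/6 mouse sample, made from lymph nodes pooled from 2 mice. Sf samples came from male B6.Cg-Foxp3sf/J mice, which carry the scurfy allele of Foxp3. All animals were 3 weeks old. The other 3 arrays, labelled Sf.Il2-/-, are given as mice with the same Foxp3 allele and a null Il2 gene (B6.129P2-Il2tm1Hor/J), and here they enter the estimate of the spread between arrays and are set beside Sf for a few genes. Axillary, brachial, inguinal, cervical and facial nodes were used. Cells positive for B220, CD8, CD11b, CD11c or NK1.1 were removed, and cells stained for CD3 and CD4 were sorted. The labels call the arrays biological replicates and do not say how many mice gave each Sf sample, so p-values measure the spread between these samples only.

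Regulatory T cells depend on the transcription factor Foxp3 for their formation and for suppressing other T cells. It lies on the X chromosome, and male mice with the scurfy allele, a frameshift in Foxp3, lack working regulatory T cells. Their conventional CD4 T cells become activated soon after birth, and the animals develop fatal inflammation of many organs. The allele alters the reading frame and does not remove the gene, so the level of Foxp3 RNA does not check the labels. In sorted bulk RNA, fewer cells of a type and less RNA per cell cannot be told apart, and this holds for every gene described here.

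Levels are given as log2(intensity + 1), where intensity is the authors' value on the linear scale, always with the Sf arrays in the order Sf 1, Sf 2, Sf 3. Median intensities over the 4 arrays were 30.5 to 32.4, and upper quartiles 110 to 145. Over 11460 genes tested, the levels correlated at 0.988 between Sf 1 and Sf 2, at 0.950 and 0.933 between these and Sf 3, and at 0.902 to 0.927 between an Sf array and B6 (Pearson, across genes, which are not independent). Markers of the sorted cell type were high in all 4 arrays: Cd3d read 11.74 in B6 and 11.44, 11.20 and 11.44 in the Sf arrays. Cd4 read 11.27 in B6 and 9.72, 9.44 and 10.71 in the Sf arrays, a difference of -1.31 (limma adjusted p = 0.148), but with the replicate number as a block it fell by 1.60 (adjusted p = 0.0165). Cd8a read 7.29 in B6 and 6.28, 6.54 and 5.50 in the Sf arrays. The median difference from B6 over all tested genes was -0.25, with Sf 1, Sf 2 and Sf 3 at -0.29, -0.41 and -0.10, and it was 0.02 after quantile normalization, so gene lists are described by their median difference minus that of all genes.

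In Sf, several genes of effector T cells rose and several genes of resting, recirculating T cells fell. The decoy receptor Il1r2, the transcription factor Bhlhe40, the galectin Lgals3, the granzyme Gzmb, the inhibitory receptor Lag3 and the cytokine Il10 were among the genes that rose. Among those that fell were Dapl1, Il6ra, Bach2, Foxo1, Lef1 and S1pr1. Of 11460 genes tested, 283 changed (2.47%), meaning a limma adjusted p under 0.05 and all 3 Sf arrays on the same side of B6. Of these 150 rose (1.31%) and 133 fell (1.16%). Lying on 1 side is common by itself: all 3 Sf arrays were above B6 for 2249 genes (19.6%) and below it for 5371 (46.9%).

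The median B6 level was 5.31 for the 150 that rose and 10.08 for the 133 that fell, and the median differences were 2.28 and -1.71. In 63 of the rises and 4 of the falls the lower group read under 5, near the floor of the array, and those rises passed the filter on dim genes only through the mutant arrays, so the low B6 level of the rises is partly set by that filter. There, a difference has no exact size and no fold is given. The other 87 rises and 129 falls were measured on both sides. Probe sets of Sesn1, Foxo1, Ryk, Cnn3, Rrm2 and Hmgcs1 are of the kind that can match related transcripts, so these genes, and families such as granzymes, Ifitm and MHC genes, are uncertain to that extent. A rule without any test, in which every Sf array differed from B6 at least 2-fold on 1 side, was met by 363 genes above B6 (3.17%) and 293 below it (2.56%), and by 276 of the 283 changed genes.

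The counts moved with the setting, and B6, with 1 array, is assumed to vary like the mutant arrays. With the replicate number as a block, which sets B6 beside Sf 1 and Sf.Il2-/- 1, 1845 genes changed, 472 higher (4.12%) and 1373 lower (12%), among them all 283. Counts of list members under this replicate block, given below, are to be read against those shares, and a share near them is no result about the list. Without Sf 3 there were 3509 (679 higher, 2830 lower), again including all 283, and without Sf 1 there were 118 (86 higher, 32 lower), all among the 283. After quantile normalization 543 changed, 385 higher and 158 lower. An exact permutation test of 3 arrays against 1 cannot give a p under 0.25, so none was used for single genes.

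**Figure D1:**
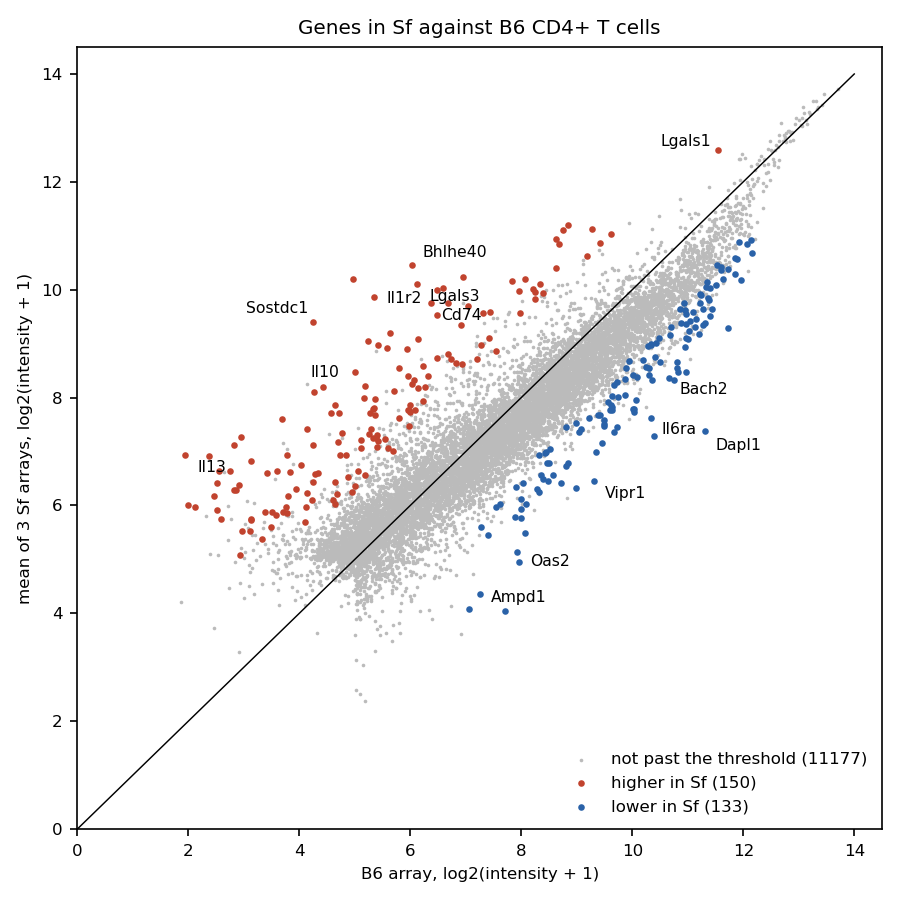
Each point is 1 of 11460 genes, with the log2(intensity + 1) of the B6 array on the x axis and the mean of the 3 Sf arrays on the y axis; the line marks equal levels. The 150 genes that rose (red) lie mostly at a B6 level under 8, and the 133 that fell (blue) mostly above it.

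Il1r2 and Bhlhe40 showed the largest rises measured on both sides. Il1r2, a receptor that binds interleukin-1 without signalling, read 5.35 in B6 and 9.57, 9.42 and 10.61 in the Sf arrays. It rose by 4.52 ± 0.42, 22.9-fold (adjusted p = 0.00178). Bhlhe40, a helix-loop-helix factor that helper T cells use for cytokine production, read 6.04 in B6 and 9.89, 10.40 and 11.06 in the Sf arrays. It rose by 4.41 ± 0.40, 21.3-fold (adjusted p = 0.00166). For both genes Sf 3 was the highest array, and even the lowest Sf array was 3.85 or more above B6.

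Lgals3, which encodes the sugar-binding galectin-3, read 6.13 in B6 and 10.33, 10.01 and 9.96 in the Sf arrays and rose by 3.97 ± 0.38, 15.7-fold (adjusted p = 0.00178). Its 3 Sf arrays lay within 0.38 of each other. Fgl2, a secreted immunoregulatory protein related to fibrinogen, read 5.24 in B6 and 9.16, 8.70 and 9.27 in the Sf arrays and rose by 3.81 ± 0.69, 14-fold (adjusted p = 0.025). Penk, the precursor of the enkephalin peptides, read 6.48 in B6 and 9.90, 9.25 and 10.81 in the Sf arrays and rose by 3.51 ± 0.49, 11.4-fold (adjusted p = 0.0094). Adam8, a surface metalloprotease, read 5.0 in B6 and 8.27, 8.40 and 8.76 in the Sf arrays and rose by 3.48 ± 0.29, 11.1-fold (adjusted p = 0.00129). In Fgl2, Penk and Adam8 the Sf array nearest to B6 was still 2.77 or more above it. Cxcl10, a ligand of the chemokine receptor CXCR3, rose by 3.57 ± 0.43. Ebi3, a subunit shared by interleukin-27 and interleukin-35, rose by 3.56 ± 0.57. Cxcr6, the receptor for the chemokine CXCL16, rose by 3.44 ± 0.40, and Epas1, which encodes the alpha subunit of a hypoxia-inducible factor, by 3.28 ± 0.63. Without Sf 1 or Sf.Il2-/- 3 in turn, Epas1 did not pass (limma adjusted p = 0.0522 to 0.056). Fgl2 and Epas1 failed in at least 1 refit under another setting, with adjusted p up to 0.0542 and 0.063 over all refits.

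**Figure D2:**
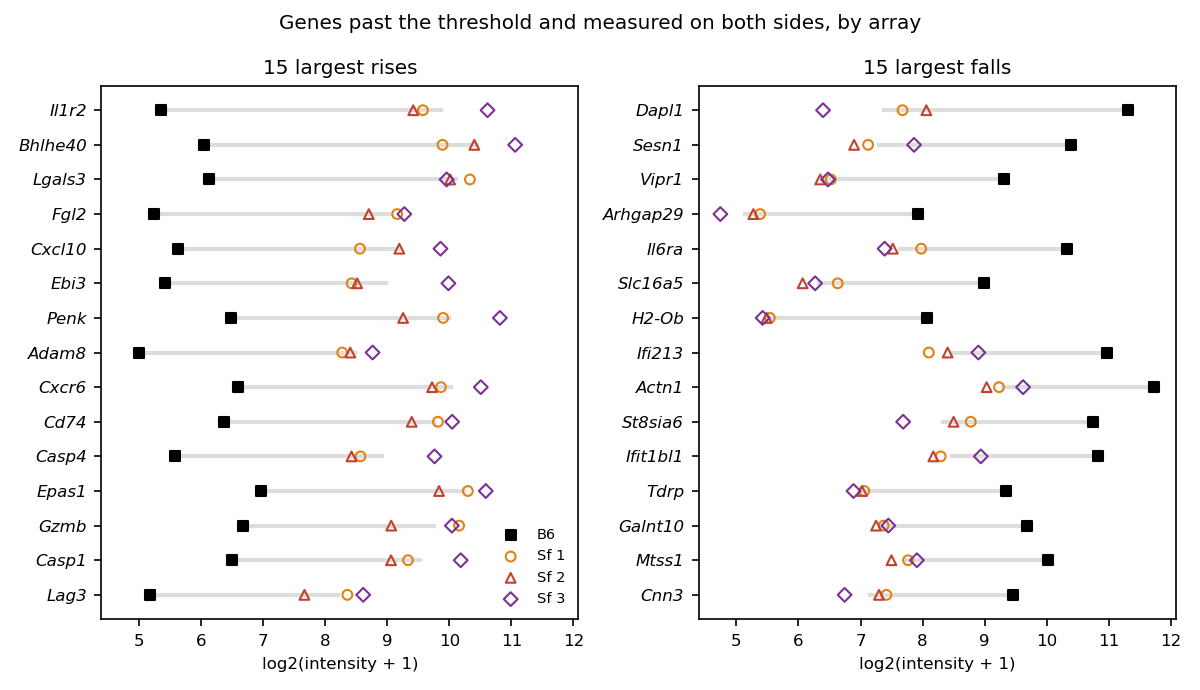
Levels, log2(intensity + 1) on the x axis, of the 15 largest rises (left) and 15 largest falls (right) among changed genes measured on both sides; the square is B6, the open symbols the 3 Sf arrays and the bar runs from B6 to the Sf mean. The Sf arrays lie on 1 side of B6 in every gene shown, as the rule for a change requires. Sf 3 is the farthest of the 3 in Il1r2, Bhlhe40, Penk and Dapl1.

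Several immune genes rose from a level near the floor, and the size of such a rise is only approximate. Ifitm2, a membrane protein of an interferon-inducible family, read 4.96 in B6 and 9.86, 9.98 and 10.74 in the Sf arrays. Sostdc1, a secreted antagonist of bone morphogenetic protein and Wnt signals, read 4.24 in B6 and 9.80, 9.05 and 9.36 in the Sf arrays. Il13, a type 2 cytokine, read 1.94 in B6 and 7.37, 5.42 and 8.02 in the Sf arrays. The Sf arrays spanned 0.88 in Ifitm2 and 0.75 in Sostdc1, whereas Il13 spanned 2.61 between Sf 2 and Sf 3. Havcr2, the inhibitory receptor TIM-3, read 1.99 in B6 and 5.68, 5.27 and 7.10 in the Sf arrays, and Ccl1, the chemokine that binds CCR8, read 2.82 in B6 and 7.29, 6.34 and 7.72 in the Sf arrays. Pik3ap1, an adaptor that links receptors to phosphoinositide 3-kinase, read 2.95 in B6 and 7.34, 6.93 and 7.56 in the Sf arrays. Fitted differences were 5.23 for Ifitm2, 5.16 for Sostdc1, 5.0 for Il13, 4.03 for Havcr2, 4.29 for Ccl1 and 4.32 for Pik3ap1, where another probe set gave 1.45. Scin, an actin-severing protein, read 2.38 in B6 and 6.03, 5.84 and 8.89 in the Sf arrays, with Sf 3 far above the other 2 arrays. Ier3 (3.92), an early-response gene, Ryk (3.89), a Wnt-binding receptor, and Ica1l (4.07) completed the 10 largest such rises, all with an adjusted p under 0.05. Without Sf 1 or Sf.Il2-/- 1 in turn, Il13 did not pass (limma adjusted p = 0.057 to 0.0852), and without Sf.Il2-/- 1 or Sf.Il2-/- 3 in turn, Scin did not (adjusted p = 0.0605 to 0.0726). Il13, Scin and Havcr2 failed in at least 1 refit under another setting, with adjusted p up to 0.0852, 0.115 and 0.0706 over all refits.

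The stretch of 250 bases before the transcription start is shown for 4 of these genes, because it holds TGANTCA, where N is any base. This is a loose form of the letters bound by AP-1, a dimer of Fos and Jun proteins that acts downstream of the T cell receptor. The match reads TGAGTCA in Gzmb, Fgl2 and Cxcl10 and TGATTCA in Havcr2. The sequences are those of RefSeq on GRCm38.p6, written 5′ to 3′ on the strand of the gene, and capitals mark the match. They lie at chr14:56262335-56262584 on the minus strand for Gzmb, chr11:46454681-46454930 on the plus strand for Havcr2, chr5:21372423-21372672 on the plus strand for Fgl2 and chr5:92348890-92349139 on the minus strand for Cxcl10. Gzmb encodes granzyme B.
Gzmb: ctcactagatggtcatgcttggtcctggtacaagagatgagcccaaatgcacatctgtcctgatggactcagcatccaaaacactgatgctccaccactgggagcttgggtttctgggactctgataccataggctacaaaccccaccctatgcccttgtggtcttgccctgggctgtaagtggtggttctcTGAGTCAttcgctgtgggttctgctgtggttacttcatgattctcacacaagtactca
Havcr2: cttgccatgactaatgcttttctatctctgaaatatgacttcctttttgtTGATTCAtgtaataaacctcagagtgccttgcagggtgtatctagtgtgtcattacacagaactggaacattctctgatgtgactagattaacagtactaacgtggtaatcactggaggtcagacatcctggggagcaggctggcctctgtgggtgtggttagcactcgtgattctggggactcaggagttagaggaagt
Fgl2: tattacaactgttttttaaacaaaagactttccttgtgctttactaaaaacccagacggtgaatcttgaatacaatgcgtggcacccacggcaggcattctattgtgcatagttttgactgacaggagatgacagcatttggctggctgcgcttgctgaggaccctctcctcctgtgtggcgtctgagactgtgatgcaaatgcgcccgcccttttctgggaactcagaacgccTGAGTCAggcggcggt
Cxcl10: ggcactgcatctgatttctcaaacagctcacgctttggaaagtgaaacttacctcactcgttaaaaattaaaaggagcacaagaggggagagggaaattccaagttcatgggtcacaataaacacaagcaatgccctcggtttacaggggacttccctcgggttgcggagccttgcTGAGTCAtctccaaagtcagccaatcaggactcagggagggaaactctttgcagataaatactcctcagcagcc
The first base of the match lies 58, 200, 16 and 74 bases before the start, in that order. Both strands were searched, and the reverse complement of this motif is itself. A match was found in 18 of the 140 promoters of genes that rose (12.9%) and in 9 of the 166 of genes that fell (5.42%), against 4.50% of the 11901 promoters of tested genes and 6.75% of all 32851 in the table. RefSeq promoters were found for 114 of the 150 genes that rose and 108 of the 133 that fell, and a gene with several starts counts once for each. These are matches of letters and no measurement of binding.

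Dapl1, on the list of naive T cell genes, showed the largest fall measured on both sides. It read 11.30 in B6 and 7.68, 8.06 and 6.40 in the Sf arrays and fell by 3.93 ± 0.70, 15.2-fold (adjusted p = 0.0241), and Sf 3 was the lowest array. Sesn1, a stress-induced inhibitor of the growth kinase complex mTORC1, read 10.39 in B6 and 7.12, 6.90 and 7.86 in the Sf arrays and fell by 3.10 ± 0.42, 8.55-fold (adjusted p = 0.00817). Vipr1, a receptor for vasoactive intestinal peptide, read 9.31 in B6 and 6.52, 6.35 and 6.48 in the Sf arrays and fell by 2.86 ± 0.28, 7.28-fold (adjusted p = 0.00187). The 3 Sf arrays were within 0.17 of each other for Vipr1 and within 0.97 for Sesn1. Il6ra, the ligand-binding chain of the interleukin-6 receptor, read 10.33 in B6 and 7.98, 7.52 and 7.39 in the Sf arrays and fell by 2.70 ± 0.31, 6.51-fold (adjusted p = 0.00481). Actn1, which encodes the actin cross-linker alpha-actinin, read 11.73 in B6 and 9.23, 9.03 and 9.62 in the Sf arrays and fell by 2.44 ± 0.37, 5.41-fold (adjusted p = 0.0133). Arhgap29, a GTPase-activating protein, fell by 2.79 ± 0.50. St8sia6, a sialyltransferase, fell by 2.42 ± 0.41, Galnt10, an enzyme that starts O-linked sugar chains, by 2.32 ± 0.44, and Slc16a5, of the monocarboxylate transporter family, by 2.66 ± 0.56. Mtss1, a membrane-bending protein that binds actin, fell by 2.30 ± 0.28 at its brightest probe set and read between -0.45 and -1.42 at 4 others. Cnn3, an actin-binding calponin, fell by 2.30 ± 0.40, and Tdrp by 2.35 ± 0.27. Of genes near the floor in Sf, App, the amyloid precursor protein, and A530021J07Rik fell, from 7.05 and 7.71 in B6 to means of 4.08 and 4.04. Without Sf 1, Galnt10 did not pass (limma adjusted p = 0.06), and without Sf 1, Sf 2 or Sf.Il2-/- 1 in turn, Slc16a5 did not (adjusted p = 0.0519 to 0.0678). Dapl1, Actn1, St8sia6, Galnt10, Slc16a5 and App failed in at least 1 refit under another setting, with adjusted p up to 0.0513, 0.0508, 0.0899, 0.0775, 0.176 and 0.0534 over all refits.

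**Figure D3:**
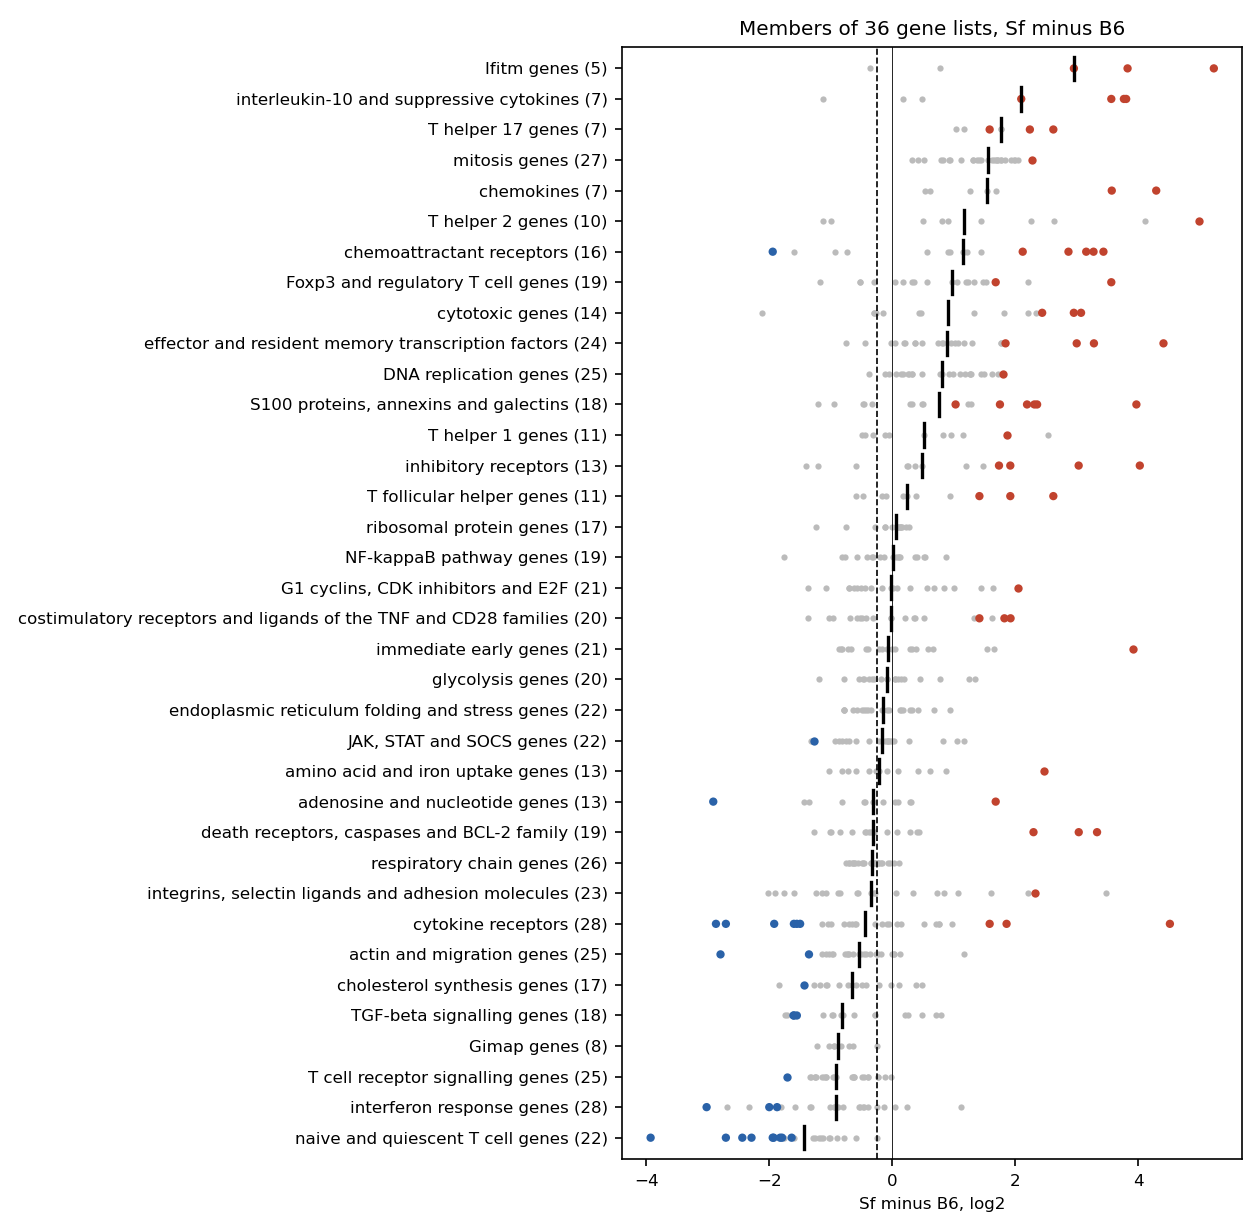
Difference between the mean of the 3 Sf arrays and B6, log2 on the x axis, for every tested member of 36 gene lists (tested members in parentheses); red and blue points rose and fell, grey points did neither, the black bar is the median of the list and the dashed line the median of all tested genes (-0.25). Naive and quiescent T cell genes lie at the bottom, and Ifitm genes at the top.

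Gene lists written for these cells named 693 genes and held 594 tested genes, of which 50 rose and 24 fell. A member dim in B6 was tested only where a mutant group mean reached 5. List counts and medians are thus partly set by this filter and lean upward. This matters most in lists with many untested members, such as T helper 17 (7 of 12 tested), T helper 2 (10 of 16) and chemokines (7 of 13). Over all tested genes 1.31% rose and 1.16% fell. The lists were written with earlier results of these data known, so a higher share in them is no independent result. Foxp3 itself read 7.25 in B6 and 6.04, 5.87 and 6.32 in the Sf arrays, below B6 in every Sf array. It differed by -1.17 ± 0.32 and did not pass (limma adjusted p = 0.0904). Of 17 refits it passed in only 2, with the replicate block (adjusted p = 0.0431) and without Sf 3. Both are settings under which many more genes changed. Il2ra, the alpha chain of the interleukin-2 receptor and abundant in regulatory T cells, read 6.92 in B6 and 7.79, 7.55 and 8.36 in the Sf arrays, a difference of 0.98 ± 0.48 (limma adjusted p = 0.259). Il2, the T cell growth factor, read 5.22 in B6 and 5.39, 5.09 and 7.35 in the Sf arrays, high in Sf 3 alone (difference 0.72, limma adjusted p = 0.569). The 3 arrays labelled Sf.Il2-/- read 7.17, 8.20 and 7.74 for Il2, all above B6. Whether this probe set lies outside the altered part of the gene was not tested, so its level does not check their label as Il2 null. Of 19 tested genes of regulatory T cells, 2 rose, 0 fell and 17 did neither, with a list median 1.22 above that of all genes. The 2 were Ebi3, which rose by 3.56, and Entpd1, the ectoenzyme CD39 that degrades extracellular ATP, which read 5.41 in B6 and 7.20, 7.07 and 7.01 in the Sf arrays and rose by 1.68 ± 0.25, 3.21-fold (adjusted p = 0.0127). In 6 members every Sf array was at least 2-fold above B6, where 3.17% of all genes were. Under the replicate block 6 rose and 1 fell. Ctla4, an inhibitory receptor and named after its values were seen, read 9.45 in B6 and 10.30, 10.60 and 11.07 in the Sf arrays (limma adjusted p = 0.0804). In 13 of the 19 genes every Sf array was above B6, where 19.6% of all genes were.

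Genes of naive and resting T cells lay below B6. Of 22 tested, 9 fell, 0 rose and 13 did neither, and the list median lay 1.19 below that of all genes. All 22 had every Sf array below B6, where 46.9% of all genes did. Bach2, a repressor that keeps T cells quiescent, read 10.66 in B6 and 8.35, 8.10 and 8.66 in the Sf arrays and fell by 2.29 ± 0.32, 4.88-fold (adjusted p = 0.0094), although another of its probe sets gave -0.22. Foxo1, a forkhead factor that drives homing and survival genes, read 11.28 in B6 and 9.28, 9.18 and 9.60 in the Sf arrays and fell by 1.93 ± 0.30, 3.8-fold (adjusted p = 0.0153). Lef1, a factor of the Wnt pathway typical of naive cells, read 11.13 in B6 and 9.25, 9.03 and 9.66 in the Sf arrays and fell by 1.82 ± 0.29, 3.53-fold (adjusted p = 0.0164). Klf3, a Krüppel-like repressor, read 11.28 in B6 and 9.78, 9.44 and 9.72 in the Sf arrays and fell by 1.63 ± 0.26, 3.1-fold (adjusted p = 0.0164), with 1 of its other probe sets at -0.60. S1pr1, the sphingosine-1-phosphate receptor with which T cells leave lymph nodes, read 11.32 in B6 and 9.45, 9.27 and 9.42 in the Sf arrays and fell by 1.94 ± 0.32, 3.84-fold (adjusted p = 0.0188). In Bach2, Foxo1, Lef1, Klf3 and S1pr1 the lowest array was Sf 2, and the Sf array nearest to B6 was still 1.47 or more below it. Dapl1, Il6ra and Actn1 were described above, and Foxp1, a forkhead factor of quiescence outside the naming rule, fell by 1.79. Ccr7, the homing receptor for lymph nodes, named after its values were seen, read 11.51 in B6 and 9.68, 9.75 and 10.31 in the Sf arrays and did not pass (limma adjusted p = 0.0641), but did with the replicate block (adjusted p = 0.0118). Without Sf 1, Lef1 did not pass (limma adjusted p = 0.0524). Lef1 and Klf3 failed in at least 1 refit under another setting, with adjusted p up to 0.0606 and 0.0617 over all refits.

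Promoters of Il6ra and Lef1 are shown because they hold CACGTG, the E-box bound by Bhlhe40 and by other helix-loop-helix factors, among them Myc. They lie at chr3:89913197-89913446 on the minus strand for Il6ra and chr3:131156044-131156293 on the plus strand for Lef1 in RefSeq on GRCm38.p6, the latter being 1 of 4 starts in the table. Each is written on the strand of its gene with the match in capitals.
Il6ra: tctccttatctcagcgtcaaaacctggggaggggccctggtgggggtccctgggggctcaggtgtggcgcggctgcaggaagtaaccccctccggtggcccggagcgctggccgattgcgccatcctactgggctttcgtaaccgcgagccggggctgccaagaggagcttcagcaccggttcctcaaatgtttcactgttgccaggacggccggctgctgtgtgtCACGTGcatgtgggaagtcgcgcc
Lef1: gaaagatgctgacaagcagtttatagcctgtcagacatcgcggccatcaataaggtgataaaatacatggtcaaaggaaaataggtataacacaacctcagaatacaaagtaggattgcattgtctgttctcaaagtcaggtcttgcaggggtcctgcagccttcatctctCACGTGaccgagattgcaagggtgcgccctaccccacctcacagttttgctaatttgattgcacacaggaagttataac
The match begins 24 and 79 bases before the start. It was found in 19 of the 166 promoters of genes that fell (11.4%) and in 7 of the 140 of genes that rose (5.0%), against 8.25% for tested genes and 6.02% for all, and it reads the same on both strands. Named genes with these letters also included Acvr1b, which fell, and Casp1, Il1r2 and Pik3ap1, which rose. The forkhead letters TGTTTAC were found in 3.01% of promoters of genes that fell and in 5.0% of those that rose, against 2.36% for tested genes. Among the other motifs searched on both strands, TTCNNNGAA (STAT) was found in 5.71% of promoters of genes that rose and 3.61% of those that fell (6.03% of tested), CTTTGAA (TCF and LEF) in 4.29% and 3.01% (3.33%), GGANTTTCC (NF-kappaB) in 3.57% and 1.81% (1.08%), and TTACGTAA (NFIL3) in 0 of either (0.193%).

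Transcription factors of effector and resident memory cells lay mostly above B6. Of 24 tested, 4 rose, 0 fell and 20 did neither, with a list median 1.14 above all genes. Beside Bhlhe40 and Epas1, the list held Maf, which drives Il4, Il10 and Il21 in helper T cells and read 9.28 in B6 and 11.37, 10.94 and 11.06 in the Sf arrays. Maf rose by 1.85 ± 0.27, 3.59-fold (adjusted p = 0.0115), and its 5 other probe sets gave 0.93 to 3.37. Nfil3, a leucine zipper factor linked to Il10 and Havcr2, read 4.72 in B6 and 8.01, 7.97 and 7.19 in the Sf arrays and rose by 3.00 ± 0.62 (adjusted p = 0.0407), from a B6 level near the floor. All 3 Sf arrays were above B6 for both, as the rule for a change requires. With the replicate block 8 rose, the added ones being Batf, Irf4, Vdr and Zbtb32. Named after their values were seen, Batf, an AP-1 factor of effector differentiation, read 8.02 in B6 and 9.55, 9.32 and 10.50 in the Sf arrays (limma adjusted p = 0.0557, and 0.0269 with the block), and Tbx21, the T helper 1 factor T-bet, read 6.44 in B6 and 6.41, 6.72 and 8.68 in the Sf arrays, clearly above B6 in Sf 3 alone. Without Sf 1 or Sf 2 in turn, Nfil3 did not pass (limma adjusted p = 0.0629 to 0.0744). Nfil3 failed in at least 1 refit under another setting, with adjusted p up to 0.086 over all refits.

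Cytokine genes of several helper programmes were above B6 at once. Il21, a cytokine of T follicular helper and T helper 17 cells, read 5.36 in B6 and 7.94, 7.97 and 8.03 in the Sf arrays and rose by 2.62 ± 0.30, 6.16-fold (adjusted p = 0.00481), and its 3 Sf arrays differed by only 0.09. Of 7 tested T helper 17 genes (12 were written), Il21, Ahr and Il1r1 rose, 0 fell and 4 did neither (list median 2.02 above all genes). Ahr, a receptor for dietary and tryptophan-derived ligands, read 6.49 in B6 and 8.73, 8.47 and 8.98 in the Sf arrays and rose by 2.24 ± 0.34, 4.73-fold (adjusted p = 0.0127), with another probe set at 0.71. Il1r1, the signalling receptor for interleukin-1, read 4.11 in B6 and 5.65, 5.74 and 5.69 in the Sf arrays and rose by 1.59 ± 0.28 (adjusted p = 0.024), from near the floor. Il17a itself, named after its values were seen, read 4.25 in B6 and 5.06, 5.83 and 4.97 in the Sf arrays (limma adjusted p = 0.258). Without Sf 1, Il1r1 did not pass (limma adjusted p = 0.0689). Il21 and Il1r1 failed in at least 1 refit under another setting, with adjusted p up to 0.0561 and 0.108 over all refits.

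Of 10 T helper 2 genes, Il13 rose, 0 fell and 9 did neither, with the list median 1.42 above all genes. Named after their values were seen, Il4 read 4.13 in B6 and 8.78, 8.31 and 7.65 in the Sf arrays (limma adjusted p = 0.0575) and Il5 read 2.94 in B6 and 5.36, 4.61 and 5.64 in the Sf arrays (limma adjusted p = 0.0925). Under the block these values were 0.0119 and 0.0173. In Il4, Il5 and Il13 all Sf arrays were above a B6 level near the floor. Gata3, the factor of this lineage, read 7.38 in B6 and 8.23, 7.95 and 8.39 in the Sf arrays (limma adjusted p = 0.36). With the replicate block 5 of the list rose (Ccr4, Ccr8, Il13, Il4 and Il5) and 1 fell (Ecm1). Of 11 T helper 1 genes, Il12rb1, a chain of the interleukin-12 receptor, read 6.00 in B6 and 7.66, 7.60 and 8.32 in the Sf arrays and rose by 1.86 ± 0.38, 3.63-fold (adjusted p = 0.0398), and the other 10 did neither (list median 0.76 above all genes). Ifng, also named after its values were seen, read 6.18 in B6 and 8.16, 9.01 and 8.98 in the Sf arrays (limma adjusted p = 0.0612) and passed with the replicate block (adjusted p = 0.018). Of 11 T follicular helper genes, Il21, Pdcd1 and Icos rose and 8 did neither, with the list median 0.48 above all genes (0.73 after quantile normalization), while Bcl6, the factor of this lineage, read 8.38 in B6 and 8.87, 8.39 and 8.39 in the Sf arrays. Without Sf 1, Sf.Il2-/- 1 or Sf.Il2-/- 2 in turn, Il12rb1 did not pass (limma adjusted p = 0.0537 to 0.0689). Il12rb1 failed in at least 1 refit under another setting, with adjusted p up to 0.0795 over all refits.

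Some suppressive cytokines rose too. Of 7 tested, Il10, Ebi3, Fgl2 and Lif rose, 0 fell and 3 did neither, with a list median 2.35 above all genes (1.20 after quantile normalization). Il10, which restrains inflammation, read 4.42 in B6 and 8.63, 8.52 and 7.43 in the Sf arrays and rose by 3.77 ± 0.49 (adjusted p = 0.00813), with Sf 3 lower than the others and B6 near the floor. Lif, a cytokine of the interleukin-6 family, read 4.84 in B6 and 6.74, 6.75 and 7.32 in the Sf arrays and rose by 2.10 ± 0.43 (adjusted p = 0.0386), but another of its probe sets gave -0.01 (adjusted p = 0.988). Tgfb1, named after its values were seen, read 10.31 in B6 and 8.94, 8.61 and 10.03 in the Sf arrays (limma adjusted p = 0.339), and it fell with the replicate block (adjusted p = 0.0181). Without Sf 1 or Sf.Il2-/- 1 in turn, Lif did not pass (limma adjusted p = 0.061 to 0.0639). Lif failed in at least 1 refit under another setting, with adjusted p up to 0.187 over all refits.

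Several calcium-binding and membrane-binding proteins rose as well. Of 18 S100, annexin and galectin genes tested, 6 rose, 0 fell and 12 did neither, with a list median 1.02 above all genes. S100a6 read 8.84 in B6 and 11.43, 11.29 and 10.87 in the Sf arrays and rose by 2.36 ± 0.27, 5.13-fold (adjusted p = 0.00481). S100a4 read 8.62 in B6 and 10.88, 10.75 and 11.18 in the Sf arrays and rose by 2.31 ± 0.33, 4.97-fold (adjusted p = 0.00982). Both encode calcium-binding proteins and were high in every array, so these differences were measured well above the floor. Lgals1, which encodes galectin-1, read 11.55 in B6 and 12.69, 12.43 and 12.63 in the Sf arrays and rose by 1.03 ± 0.17, 2.05-fold (adjusted p = 0.0182), the smallest of the 6 rises in this list. Anxa2 (1.75) and Anxa4 (2.19), annexins that bind membranes in the presence of calcium, also rose. Without Sf 1, Lgals1 and Anxa2 did not pass (limma adjusted p = 0.0704 and 0.0639). Lgals1, Anxa2 and Anxa4 failed in at least 1 refit under another setting, with adjusted p up to 0.0928, 0.232 and 0.108 over all refits.

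Some inhibitory receptors, which chronically stimulated T cells carry, rose in Sf. Of 13 tested, Pdcd1, Lag3, Havcr2 and Pdcd1lg2 rose, 0 fell and 9 did neither, with a list median 0.74 above all genes. Lag3, which binds MHC class II, read 5.18 in B6 and 8.36, 7.66 and 8.61 in the Sf arrays and rose by 3.03 ± 0.51, 8.19-fold (adjusted p = 0.0188). Pdcd1, the receptor PD-1, read 6.27 in B6 and 8.43, 7.71 and 8.45 in the Sf arrays and rose by 1.92 ± 0.36, 3.79-fold (adjusted p = 0.0252). Pdcd1lg2, its ligand PD-L2, read 6.00 in B6 and 7.71, 7.63 and 7.87 in the Sf arrays and rose by 1.74 ± 0.26, 3.34-fold (adjusted p = 0.0127). By the rule for a change, the B6 array was the lowest of the 4 for all 3 of them. Sf 2 was the lowest of the Sf arrays. The replicate block kept the count at 4 and added falls of Cd5 and Vsir. Of 20 costimulatory receptors and ligands, 3 rose, 0 fell and 17 did neither (median 0.22 above all genes, 0.11 after quantile normalization). Icos, a CD28-family receptor that supports helper function, read 9.62 in B6 and 10.95, 10.75 and 11.42 in the Sf arrays and rose by 1.42 ± 0.28, 2.68-fold (adjusted p = 0.032). Tnfsf11, the cytokine RANKL, read 6.82 in B6 and 8.58, 8.28 and 9.07 in the Sf arrays and rose by 1.83 ± 0.38, 3.55-fold (adjusted p = 0.0407), and Tnfsf14, the ligand LIGHT, read 5.32 in B6 and 7.14, 6.72 and 7.89 in the Sf arrays and rose by 1.93 ± 0.40, 3.8-fold (adjusted p = 0.042). For all 3 the highest array was Sf 3. With the block 2 members fell, Cd27 and Tnfrsf1a. Without Sf 1, Pdcd1 did not pass (limma adjusted p = 0.0787), without Sf 1 or Sf.Il2-/- 3 in turn, Icos did not (adjusted p = 0.0614 to 0.0736), without Sf 1, Sf.Il2-/- 1 or Sf.Il2-/- 3 in turn, Tnfsf11 did not (adjusted p = 0.0636 to 0.0903), and without Sf 1, Sf.Il2-/- 1, Sf.Il2-/- 2 or Sf.Il2-/- 3 in turn, Tnfsf14 did not (adjusted p = 0.0565 to 0.0781). Pdcd1, Icos, Tnfsf11 and Tnfsf14 failed in at least 1 refit under another setting, with adjusted p up to 0.0787, 0.102, 0.0903 and 0.0853 over all refits.

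Some genes of cell killing and some inflammatory caspases also rose. Gzmb, whose promoter is printed above, read 6.68 in B6 and 10.16, 9.06 and 10.04 in the Sf arrays and rose by 3.07 ± 0.48, 8.41-fold (adjusted p = 0.0153). Gzma, another granule protease, read 5.94 in B6 and 9.13, 8.37 and 9.19 in the Sf arrays and rose by 2.96 ± 0.45, 7.76-fold (adjusted p = 0.0133). Cst7, a cystatin of cytotoxic granules, read 6.91 in B6 and 9.41, 9.06 and 9.58 in the Sf arrays and rose by 2.44 ± 0.33, 5.43-fold (adjusted p = 0.00817). In these 3 genes Sf 2 was the array nearest to B6. Of 14 cytotoxic genes, these 3 rose, 0 fell and 11 did neither (list median 1.15 above all genes), and Prf1, which encodes the pore-forming perforin and was named after its values were seen, read 6.66 in B6 and 6.33, 6.11 and 6.65 in the Sf arrays. With the replicate block 4 rose and 1 fell. Of 19 genes of death receptors, caspases and the BCL-2 family, 3 rose, 0 fell and 16 did neither. Casp1, which matures interleukin-1 beta, read 6.49 in B6 and 9.33, 9.06 and 10.18 in the Sf arrays and rose by 3.04 ± 0.41, 8.2-fold (adjusted p = 0.00817). Casp4, which senses intracellular lipopolysaccharide, read 5.58 in B6 and 8.57, 8.42 and 9.76 in the Sf arrays and rose by 3.33 ± 0.48, 10.1-fold (adjusted p = 0.0105). Pmaip1, the pro-death protein NOXA, read 5.37 in B6 and 7.40, 7.49 and 8.13 in the Sf arrays and rose by 2.30 ± 0.45, 4.92-fold (adjusted p = 0.032). In all 3, Sf 3 was the highest array. The replicate block added a fall of Casp8. Pmaip1 failed in at least 1 refit under another setting, with adjusted p up to 0.0686 over all refits.

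Several receptors that guide cells to inflamed tissue rose and the lymph node exit receptor S1pr1 fell. Of 16 chemoattractant receptors tested, 5 rose, 1 fell and 10 did neither, with a list median 1.40 above all genes. Ccr1, a receptor for inflammatory chemokines, read 3.78 in B6 and 7.26, 6.59 and 6.97 in the Sf arrays. Ltb4r1, the high-affinity receptor for leukotriene B4, read 4.24 in B6 and 7.44, 6.82 and 7.08 in the Sf arrays. Cysltr1, a receptor for cysteinyl leukotrienes, read 4.14 in B6 and 8.14, 7.50 and 6.61 in the Sf arrays. These 3 read under 5 in B6 and had fitted rises of 3.16 ± 0.37 (adjusted p = 0.00503), 2.87 ± 0.35 (adjusted p = 0.00613) and 3.28 ± 0.51 (adjusted p = 0.0149) by limma. Cxcr6 read 6.59 in B6 and 9.86, 9.72 and 10.51 in the Sf arrays and rose by 3.44 ± 0.40, 10.8-fold (adjusted p = 0.00495). Ccr2, the receptor for CCL2, read 6.68 in B6 and 9.03, 8.58 and 8.79 in the Sf arrays and rose by 2.12 ± 0.45, 4.36-fold (adjusted p = 0.0437), with 1 other probe set at 2.55 and 1 at 0.40. With the replicate block 9 rose and 3 fell. Among 7 chemokines Ccl1 and Cxcl10 rose and 5 did neither (median 1.79 above all genes), and 3 rose with the block. Cxcl10 read 5.63 in B6 and 8.56, 9.19 and 9.86 in the Sf arrays and rose by 3.57 ± 0.43, 11.9-fold (adjusted p = 0.00562). Without Sf 1 or Sf.Il2-/- 3 in turn, Ccr2 did not pass (limma adjusted p = 0.0518 to 0.0975). Ccr2 failed in at least 1 refit under another setting, with adjusted p up to 0.0975 over all refits.

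Of 23 integrins, selectin ligands and adhesion molecules, only Itgb1 passed, and 22 did neither. Itgb1, the beta-1 integrin chain of receptors for matrix and VCAM-1, read 7.83 in B6 and 10.06, 9.88 and 10.53 in the Sf arrays and rose by 2.32 ± 0.48, 5.01-fold (adjusted p = 0.04). Named after their values were seen, Gcnt1, which builds selectin ligands, read 5.39 in B6 and 9.19, 8.64 and 8.78 in the Sf arrays (limma adjusted p = 0.0612), and Itgb3 read 9.48 in B6 and 7.38, 6.97 and 8.02 in the Sf arrays (limma adjusted p = 0.0744). The median of this list changed sign under quantile normalization and is not given as a direction. Under the replicate block 5 rose and 6 fell, with Gcnt1 (adjusted p = 0.0114) among the former and Itgb3 (adjusted p = 0.00675) among the latter. Without Sf 1 or Sf.Il2-/- 1 in turn, Itgb1 did not pass (limma adjusted p = 0.0533 to 0.0716). Itgb1 failed in at least 1 refit under another setting, with adjusted p up to 0.0772 over all refits.

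Cytokine receptors moved in both directions. Of 28 tested, Il1r2, Il1r1 and Il12rb1 rose, 6 fell and 19 did neither. The 6 were Il6ra, Vipr1, Tgfbr2, Tgfbr3, Il17ra (-1.50) and Il6st (-1.92), the signalling chain shared by the interleukin-6 family, the last 2 outside the naming rule. Both chains of the interleukin-6 receptor thus fell, and both receptors for interleukin-1 rose. Of 18 genes of signalling by transforming growth factor beta, which restrains T cells, 3 fell, 0 rose and 15 did neither, with a list median 0.56 below all genes (0.34 after quantile normalization). Tgfbr2, the receptor chain that binds the ligand, read 11.85 in B6 and 10.23, 10.02 and 10.65 in the Sf arrays and fell by 1.55 ± 0.29, 2.93-fold (adjusted p = 0.0252). Tgfbr3, a coreceptor, read 10.01 in B6 and 8.73, 8.45 and 8.06 in the Sf arrays and fell by 1.60 ± 0.33, 3.02-fold (adjusted p = 0.0407), with another probe set at -0.20. Acvr1b, a type I activin receptor, read 9.22 in B6 and 7.63, 7.68 and 7.55 in the Sf arrays and fell by 1.60 ± 0.25, 3.04-fold (adjusted p = 0.0154), but another of its probe sets gave 0.11 (adjusted p = 0.837). The replicate block gave 7 falls in this list and 3 rises and 8 falls among cytokine receptors. Of 22 JAK, STAT and SOCS genes Jak1, a kinase of many cytokine receptors, read 11.86 in B6 and 10.58, 10.31 and 10.86 in the Sf arrays and fell by 1.27 ± 0.25, 2.41-fold (adjusted p = 0.0313), with another probe set at -0.47, and the other 21 did neither. With the block 2 of them rose (Cish and Socs2) and 4 fell. Without Sf 1, Tgfbr2 and Acvr1b did not pass (limma adjusted p = 0.0722 and 0.0615), without Sf 1, Sf.Il2-/- 1, Sf.Il2-/- 2 or Sf.Il2-/- 3 in turn, Jak1 did not (adjusted p = 0.0519 to 0.0889), and without Sf 1, Sf 2, Sf.Il2-/- 1, Sf.Il2-/- 2 or Sf.Il2-/- 3 in turn, Tgfbr3 did not (adjusted p = 0.0578 to 0.0754). Tgfbr2, Tgfbr3, Acvr1b and Jak1 failed in at least 1 refit under another setting, with adjusted p up to 0.201, 0.158, 0.137 and 0.112 over all refits.

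Some interferon response genes fell, whereas Ifitm genes rose. Of 28 interferon response genes tested, 3 fell, 0 rose and 25 did neither, and the list median lay 0.67 below all genes. Oas2, a sensor of double-stranded RNA, read 7.96 in B6 and 4.89, 4.68 and 5.27 in the Sf arrays and fell by 3.02 ± 0.54 (adjusted p = 0.024), with the Sf arrays close to the floor. Ifit2, an inhibitor of viral translation, read 9.64 in B6 and 7.59, 7.60 and 8.11 in the Sf arrays and fell by 1.87 ± 0.34, 3.66-fold (adjusted p = 0.025). Usp18, which removes ISG15 and dampens interferon signalling, read 8.57 in B6 and 6.33, 6.36 and 7.01 in the Sf arrays and fell by 2.00 ± 0.43, 3.99-fold (adjusted p = 0.0447). In 7 members every Sf array was at least 2-fold below B6, where 2.56% of all genes were, and with the replicate block 9 fell. Ifi213, of the interferon-inducible p200 family, fell by 2.50 ± 0.38 and Ifit1bl1, of the Ifit family, by 2.35 ± 0.34. Of 5 Ifitm genes, Ifitm1, Ifitm2 and Ifitm3 rose, which encode membrane proteins that hinder virus entry. Ifitm3 read 6.13 in B6 and 8.62, 8.82 and 9.83 in the Sf arrays and rose by 2.96 ± 0.55, 7.76-fold (adjusted p = 0.0251). Ifitm1 read 4.27 in B6 and 7.24, 7.58 and 9.47 in the Sf arrays and rose by 3.83 ± 0.72 (adjusted p = 0.0261), with B6 near the floor and Sf 3 far above Sf 1 and Sf 2. Cxcl10, an interferon-induced chemokine, rose as given above, so genes known as interferon targets moved in both directions. Ifitm genes are alike in sequence, as are Ifi and Ifit genes, so a probe set may read more than its own gene. Without Sf 1, Ifit2 did not pass (limma adjusted p = 0.077), and without Sf 1, Sf 2 or Sf.Il2-/- 3 in turn, Usp18 did not (adjusted p = 0.0658 to 0.0994). Ifit2, Usp18, Ifitm1 and Ifitm3 failed in at least 1 refit under another setting, with adjusted p up to 0.077, 0.0994, 0.0621 and 0.0556 over all refits.

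Components of T cell receptor signalling were mostly below B6 without passing. Of 25 tested, 22 had every Sf array below B6 (46.9% of all genes did), but 1 fell and 24 did neither, with the list median 0.66 below all genes (0.31 after quantile normalization). Txk, a kinase of the Tec family, read 10.08 in B6 and 8.41, 8.19 and 8.54 in the Sf arrays and fell by 1.70 ± 0.30, 3.26-fold (adjusted p = 0.024). Under the block, 11 fell, among them Cd4, Cd3e, Cd247 and Prkcq. Of 25 actin and migration genes, Arhgap29 and Rhoh fell and 23 did neither, and 6 fell with the block. Rhoh, a GTPase of blood cells that supports T cell receptor signalling, read 10.34 in B6 and 9.08, 9.12 and 8.76 in the Sf arrays and fell by 1.35 ± 0.28, 2.55-fold (adjusted p = 0.0423). Of 8 Gimap genes, which encode small GTPases of lymphocytes, 7 had every Sf array below B6 and 0 passed, the lowest p being that of Gimap8, which read 11.74 in B6 and 10.43, 10.04 and 11.10 in the Sf arrays (limma adjusted p = 0.0955). Gimap8 passed with the replicate block (adjusted p = 0.0318). Of 21 immediate early genes Ier3 rose and 20 did neither. Under the block 2 of them fell, Ier2 and Ier5, a share below that of all genes. Of 19 NF-kappaB pathway genes 0 passed, and Ikbkb, the kinase that releases this factor, read 10.96 in B6 and 9.02, 8.77 and 9.81 in the Sf arrays (limma adjusted p = 0.0612, and 0.0157 with the block, where it fell as Rela did). Without Sf 1, Txk did not pass (limma adjusted p = 0.0755), and without Sf 1, Sf.Il2-/- 1, Sf.Il2-/- 2 or Sf.Il2-/- 3 in turn, Rhoh did not (adjusted p = 0.0653 to 0.121). Txk and Rhoh failed in at least 1 refit under another setting, with adjusted p up to 0.0755 and 0.249 over all refits.

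Mitosis and DNA replication genes were mostly above B6, with 1 of each list past the threshold. Of 27 mitosis genes, 26 had every Sf array above B6 (19.6% of all genes did). In 11 every Sf array was at least 2-fold above B6 (3.17% of all genes). By the rule for a change 1 of the 27 rose (3.70%, against 1.31% of all genes), and 26 did neither. Ccnb2, a cyclin of mitosis, read 7.30 in B6 and 9.47, 9.18 and 10.08 in the Sf arrays and rose by 2.27 ± 0.39, 4.84-fold (adjusted p = 0.0204). The list median was 1.81 above all genes. Rrm2, a subunit of ribonucleotide reductase, read 8.20 in B6 and 9.82, 9.57 and 10.64 in the Sf arrays and rose by 1.81 ± 0.40, 3.5-fold (adjusted p = 0.0491), the only 1 of 25 DNA replication genes to pass (median 1.05 above all genes). Sf 3 was the highest array for both, and against B6 it alone gave a median of 2.35 for the mitosis list before subtraction. Mki67, the proliferation marker Ki-67, named after its values were seen, read 8.38 in B6 and 9.63, 9.15 and 10.61 in the Sf arrays (limma adjusted p = 0.149, and 0.0388 with the replicate block). The block gave 15 rises among mitosis genes and 6 among replication genes. Of 21 G1 genes Cdkn1a, the cell cycle inhibitor p21, read 5.26 in B6 and 7.31, 7.16 and 7.49 in the Sf arrays and rose by 2.06 ± 0.30, 4.16-fold (adjusted p = 0.0111), and 20 did neither. With the block 5 rose and 2 fell, the latter being Ccnd2 and Ccnd3. Without Sf 1, Sf.Il2-/- 1, Sf.Il2-/- 2 or Sf.Il2-/- 3 in turn, Rrm2 did not pass (limma adjusted p = 0.0687 to 0.0852). Rrm2 failed in at least 1 refit under another setting, with adjusted p up to 0.114 over all refits.

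Metabolic genes are given list by list, where 2.47% of all tested genes changed (1.31% rose and 1.16% fell). Counts as small as those below are no result about these lists. Of 20 glycolysis genes 0 passed, Pdk1, a kinase that shuts pyruvate out of mitochondria, having the lowest p: it read 10.75 in B6 and 9.57, 9.52 and 9.56 in the Sf arrays (limma adjusted p = 0.0707), and it fell with the replicate block (adjusted p = 0.0262). Of 26 respiratory chain genes 0 passed with or without the block, and Sdha, a subunit of the respiratory chain, read 10.78 in B6 and 9.89, 9.80 and 10.41 in the Sf arrays. Of 22 genes of folding and stress in the endoplasmic reticulum 0 passed, and Sdf2l1 read 6.93 in B6 and 7.84, 7.59 and 8.18 in the Sf arrays (limma adjusted p = 0.153, and 0.0494 with the block). Of 17 ribosomal protein genes 0 passed, and Rps27 read 7.83 in B6 and 6.95, 7.05 and 7.25 in the Sf arrays (limma adjusted p = 0.161, and 0.0374 with the block). Of 17 cholesterol synthesis genes, Hmgcs1, an early enzyme of the pathway, read 9.72 in B6 and 8.33, 7.97 and 8.55 in the Sf arrays and fell by 1.44 ± 0.30, 2.71-fold (adjusted p = 0.0407), 16 did neither, and 4 fell with the block. Of 13 amino acid and iron uptake genes Asns, asparagine synthetase, read 5.35 in B6 and 7.35, 7.49 and 8.61 in the Sf arrays and rose by 2.47 ± 0.44, 5.53-fold (adjusted p = 0.024), with Sf 3 the highest. Of 13 genes of adenosine and nucleotide handling Entpd1 rose, and Ampd1, an AMP deaminase, read 7.26 in B6 and 4.37, 4.38 and 4.32 in the Sf arrays and fell by 2.91 ± 0.44 (adjusted p = 0.0127), from a level well above the floor to one near it, while 3 fell with the block. Without Sf 1, Sf 2, Sf.Il2-/- 1, Sf.Il2-/- 2 or Sf.Il2-/- 3 in turn, Hmgcs1 did not pass (limma adjusted p = 0.0585 to 0.121). Hmgcs1 and Asns failed in at least 1 refit under another setting, with adjusted p up to 0.153 and 0.0503 over all refits.

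Genes of MHC class II presentation stood out among the transcripts that are not usual in mouse CD4 T cells. Cd74, the invariant chain that escorts MHC class II, read 6.37 in B6 and 9.81, 9.39 and 10.04 in the Sf arrays and rose by 3.38 ± 0.31, 10.4-fold (adjusted p = 0.00166). H2-Ab1 read 4.54 in B6 and 7.55, 6.87 and 7.56 in the Sf arrays (limma adjusted p = 0.0537), H2-Aa 4.76 against 7.67, 6.90 and 7.16 (adjusted p = 0.0947) and H2-Eb1 3.71 against 7.77, 6.79 and 6.89 (adjusted p = 0.0926), all chains of MHC class II molecules. These 4 were above B6 in every Sf array, and 3 of them did not pass, although H2-Ab1 did with the replicate block (adjusted p = 0.0434). Of the molecules that load peptide, H2-DMa, a chain of the exchange factor H2-DM, read 7.05 in B6 and 9.86, 9.76 and 9.49 in the Sf arrays and rose by 2.66 ± 0.39, 6.31-fold (adjusted p = 0.011), and H2-Oa, a chain of its inhibitor H2-O, read 6.94 in B6 and 8.61, 8.66 and 8.59 in the Sf arrays and rose by 1.68 ± 0.28, 3.2-fold (adjusted p = 0.0182), both named after their values were seen. The partner chain of H2-O, H2-Ob, moved the other way: it read 8.07 in B6 and 5.54, 5.49 and 5.42 in the Sf arrays and fell by 2.59 ± 0.54, 6.01-fold (adjusted p = 0.0423). Markers of cells that present antigen were measured beside these genes. Of 9 dendritic cell genes, 4 of them the class II genes above, the level of the summed intensity was 7.85 in B6 and 10.16 to 10.67 in Sf. The other genes of that list were near or not far above the floor, with Flt3 at 1.30 against 1.41, 1.74 and 1.35 and Itgax at 4.72 against 4.88, 5.0 and 4.80. Batf3 read 4.70 against 5.26, 5.31 and 5.36 (limma adjusted p = 0.3045), and Zbtb46 4.54 against 5.46, 5.14 and 4.34. Of 11 monocyte and macrophage genes, 7 were tested and 0 changed. Csf1r read 9.35 against 9.27, 9.03 and 8.63, and Itgam 4.19 against 2.41, 2.16 and 1.02. Lyz2 read 4.02 against 5.76, 5.05 and 4.27, and C1qb 5.09 against 5.87, 5.36 and 6.16. Of 7 B cell genes the summed level was 11.67 in B6 and 10.34 to 10.96 in Sf, most of it Ighm, which read 11.53 against 9.92, 9.69 and 10.70 and fell with the replicate block (adjusted p = 0.0234). Cd22 read 7.65 against 8.34, 8.36 and 7.78, with Cd79a at 4.25 against 4.93, 4.60 and 4.47 and Ms4a1 at 3.53 against 4.95, 3.83 and 4.11. The part of such cells in the class II values was not tested. Without Sf 1, Sf 2 or Sf.Il2-/- 3 in turn, H2-Ob did not pass (limma adjusted p = 0.057 to 0.0741). H2-Ob failed in at least 1 refit under another setting, with adjusted p up to 0.0849 over all refits.

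Some markers of other cells were raised in a single array. Others, such as Csf1r, Cd22 and Ighm given above, lay well above the floor in all 4 arrays. Sf 1 carried neutrophil transcripts, with S100a8 at 4.10 against 6.37, 3.61 and 3.36 and S100a9 at 2.17 against 5.72, 2.81 and 3.23, and the summed level of 7 neutrophil genes was 8.05 in B6 and 7.77 to 8.79 in Sf. Jchain, a gene of plasma cells, read 4.61 in B6 and 7.46, 3.98 and 5.53 in the Sf arrays, highest in Sf 1. Over 13 lists of cell type markers 69 of 85 genes were on the array. Of those tested, Cd74 alone changed, where 2.47% of all tested genes did. Few were tested in each list, such as 4 for B cells, 6 for dendritic cells, 3 for neutrophils and 1 for NK cells. So few cannot show that markers of other cells do not differ. Dim markers, among them S100a8, S100a9, Cd79a, Ms4a1, Flt3 and Zbtb46, were not tested and so could not change. Leaving out both Sf 1 and the array labelled Sf.Il2-/- with the same neutrophil transcripts, an alternative chosen after seeing the data, gave 343 changed genes (230 higher, 113 lower), 207 of them among the 283. Their part in other results was not tested.

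**Figure D4:**
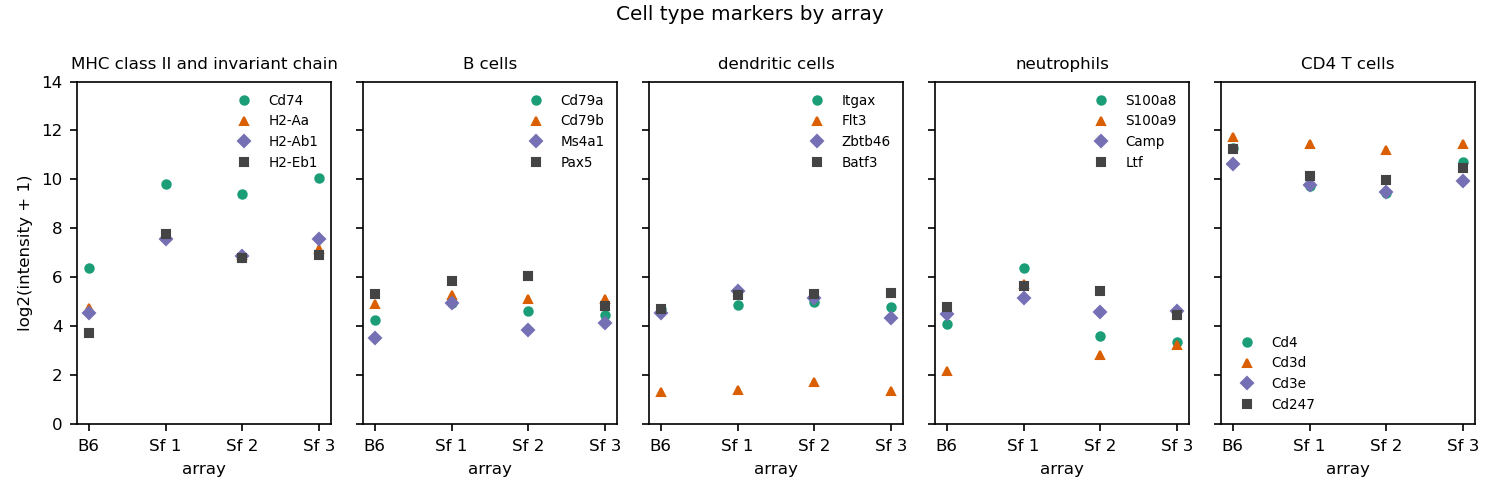
Levels, log2(intensity + 1) on the y axis, of 4 genes for each of 5 marker groups in the 4 arrays on the x axis. The MHC class II genes are above B6 in all 3 Sf arrays, the B cell genes shown (Cd79a, Cd79b, Ms4a1 and Pax5; not Cd22 and Ighm, which are higher) and the dendritic cell genes shown stay near or under 6, and S100a8 and S100a9 are raised in Sf 1 alone.

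The Sf arrays differed among themselves in the same order over changed genes as over all genes. Over all tested genes the median differences from B6 were -0.29, -0.41 and -0.10. The values and counts that follow are not corrected for these offsets. For genes that rose, the median difference from B6 was 2.25 in Sf 1, 2.11 in Sf 2 and 2.50 in Sf 3, and for genes that fell -1.69, -1.92 and -1.51. Sf 2 was the array nearest to B6 in 98 of the 150 rises, Sf 3 in 83 of the 133 falls. The range over the 3 arrays had a median of 0.65 for genes that rose, 0.49 for genes that fell and 0.59 for all genes. By their dim probe sets the arrays of the study fell into 2 sets, with Sf 3 beside B6, but no label names these sets. They overlap, since over dim probe sets the lowest correlation within a set was 0.5527 and the highest between sets was 0.5536. With the set as a block 600 genes changed (390 higher, 210 lower), of which 275 were among the 283.

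Genes with the widest range over Sf were mostly set by a single array. Dram1, a lysosomal membrane protein linked to autophagy, read 2.71 in B6 and 7.12, 7.51 and 3.32 in the Sf arrays. Trnp1 read 3.78 in B6 and 7.92, 8.46 and 4.74 in the Sf arrays. D630045J12Rik read 2.64 in B6 and 7.89, 7.12 and 4.83 in the Sf arrays. All 3 were high in Sf 1 and Sf 2 and lower in Sf 3, and 0 of them passed, although all 3 did with the replicate block (adjusted p = 0.041, 0.0208 and 0.00176). Sf 3 was instead the highest of the Sf arrays in Gzmk, a granzyme, which read 5.56 in B6 and 7.20, 6.90 and 9.58 in the Sf arrays (limma adjusted p = 0.149), in H2-Q5, a nonclassical MHC class I gene, which read 6.82 in B6 and 7.01, 6.65 and 9.64 in the Sf arrays, and in Slc15a2, a peptide transporter, which read 9.21 in B6 and 7.06, 6.07 and 9.03 in the Sf arrays (limma adjusted p = 0.26, and 0.0358 with the replicate block). In the last, Sf 3 was almost level with B6. Scin was the only 1 of the 10 genes of widest range that changed. Igkv8-30, an immunoglobulin light chain gene, read 5.27 in B6 and 8.98, 5.89 and 8.22 in the Sf arrays, high in Sf 1 and Sf 3. For 2900057B20Rik and Tex13b, Sf 3 lay below B6 and the other arrays above it.

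**Figure D5:**
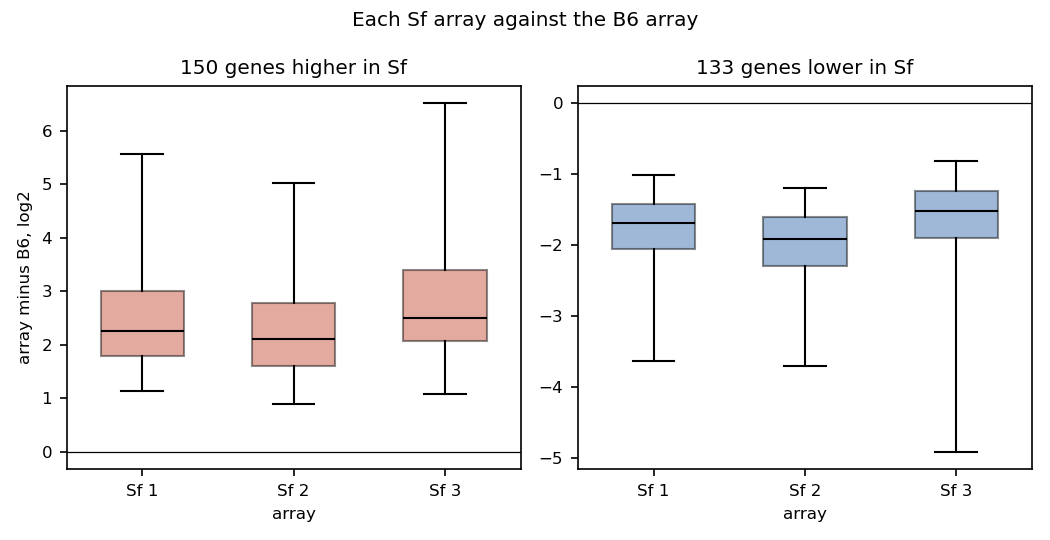
Difference of each Sf array from B6, log2 on the y axis, over the 150 genes that rose (left) and the 133 that fell (right); boxes span the quartiles with the median as a line, and whiskers reach the lowest and highest gene. All values lie on 1 side of 0 because the rule for a change requires it. The medians are 2.25, 2.11 and 2.50 on the left and -1.69, -1.92 and -1.51 on the right. They are not corrected for the medians over all tested genes (-0.29, -0.41 and -0.10).

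The arrays labelled Sf.Il2-/-, which share the Sf and B6 arrays with any comparison drawn from them, gave means of 3.83 for Il2ra, 4.28 for Foxp3, 4.49 for Ifitm1 and 4.02 for Ccr1, where the Sf means were 7.90, 6.08, 8.10 and 6.94. Means for Bhlhe40, Cd74 and Vipr1 were 10.17, 9.95 and 6.41, beside Sf means of 10.45, 9.75 and 6.45. Unlike Cd74, the MHC class II chains differed between the Sf.Il2-/- arrays 1, 2 and 3. H2-Aa read 5.28, 7.42 and 5.47, H2-Ab1 5.27, 7.15 and 5.49, and H2-Eb1 3.91, 6.92 and 4.22. Sf.Il2-/- 2, the highest for all of these chains, is also the array with neutrophil transcripts (S100a8 at 7.63). A link between them was not tested.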

How the data were processed

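RNA of sorted CD4+ T cells was hybridised to single-colour expression arrays. The values used are the authors' deposited intensity per probe set on the linear scale, made with GCOS and GCRMA per the submitters' processing notes, whose versions and order are not given in the sources used here; background correction by GCRMA leaves dim values compressed near a floor. Of 45037 probe sets 34945 have 1 gene symbol, 932 several and 9160 none; 34741 symbols were updated through Entrez identifiers, and the brightest probe set of each gene was kept (18193 genes). Values were taken as log2(intensity + 1) without further scaling, and 11460 genes with a group mean of at least 5 were tested with limma 3.58.1 (R 4.3.3, lmFit and eBayes with trend) over all 7 arrays, so that the 6 mutant arrays, with 4 residual degrees of freedom, set the spread for the single B6 array. P-values were adjusted over all tested genes (Benjamini-Hochberg). A gene changed if the adjusted p was under 0.05 and all 3 Sf arrays lay on 1 side of B6. No pair of arrays shared more than 0.535% identical values. The number of arrays limits the precision.

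Named genes were Foxp3, Il2 and Il2ra; among changed genes, the 15 largest rises and 15 largest falls measured on both sides and the 10 largest of each near the floor; up to 6 changed members of each list by lowest p, or the member of lowest p where 0 changed; and the 10 tested genes of widest range over Sf whose middle array reached 6. The members and lists were chosen with earlier results of these data known. Sf and Sf.Il2-/- share replicate numbers in the titles; deviations from the group means of same-numbered arrays correlated at 0.301, 0.211 and 0.505, above 0.1 in every pair, but the highest value between unlike numbers was 0.333, above 2 of them. No label states a pairing, the main test has no block, and the fit with the number as a block is given beside results whose call it changes. Figures were drawn with matplotlib 3.10.9 (Python 3.11.15). Alternatives were another normalization, pseudocount, filter, probe set rule and spread, the 4 arrays alone, blocks, and leaving out each array.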

Additional observations from a re-analysis of the deposited data

How the results depend on the processing

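Of the 283 changed genes, the count became 543 after quantile normalization (70.9% of calls higher, against 53% before), 161 with no filter on dim genes, 188 with probe sets of a gene averaged and 186 from the 4 arrays only. With the replicate block, that is, the number in the titles taken as a pairing, 1845 genes changed, and with the array set as a block 600. Leaving out 1 array at a time gave 118 (without Sf 1) to 3509 (without Sf 3). Genes with every Sf array at least 2-fold from B6 were 656, and 708 to 1947 when an Sf array was left out. Of list members 74 changed, and 124 did after quantile normalization, 48 without the filter, 184 with the replicate block, 120 with the array set block and 46 to 285 with 1 array left out. Of 91 named changed genes, 48 passed in all 17 refits and Arhgap29 in all 16 that tested it, and 20 failed with the 4 arrays only. Among named genes that did not change, Foxp3, Gimap8 and Rps27 passed in 2 of 17 refits. Ikbkb, Pdk1 and Sdf2l1 passed in 3, Sdha in 1, and Il2 and Il2ra in 0. Among 75 other probe sets of these genes 73 had the same direction, and those of Lif (-0.0123) and Acvr1b (0.11) did not. The cause of these shifts was not tested. Dim genes near the array's floor have no exact fold.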

Other observations

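Further genes changed that belong to no list above, and they were chosen after their values were seen. Egln3, a prolyl hydroxylase that marks hypoxia-inducible factors for removal, read 5.27 in B6 and 7.70, 7.56 and 7.86 in the Sf arrays and rose by 2.43 ± 0.32, 5.4-fold (adjusted p = 0.00817). Rgs1, which shortens chemokine receptor signals, read 8.75 in B6 and 10.99, 11.54 and 10.78 in the Sf arrays and rose by 2.36 ± 0.39, 5.12-fold (adjusted p = 0.018). Stx11, a syntaxin needed for release of cytotoxic granules, read 6.23 in B6 and 8.48, 8.37 and 8.91 in the Sf arrays and rose by 2.36 ± 0.32, 5.12-fold (adjusted p = 0.00817). The Sf arrays were all above B6 in these genes, as the rule for a change requires. Fabp5, a carrier of fatty acids, read 8.06 in B6 and 10.10, 9.86 and 10.62 in the Sf arrays and rose by 2.13 ± 0.36, 4.37-fold (adjusted p = 0.0205). Here Sf 3 was the highest array.

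Among falls outside the lists, also picked after seeing values, were genes of uptake and signalling. Igf2r, a receptor that takes up lysosomal enzymes and an insulin-like growth factor, read 10.03 in B6 and 7.79, 7.42 and 8.17 in the Sf arrays and fell by 2.23 ± 0.40, 4.7-fold (adjusted p = 0.0249). Rasgrp2, which activates Rap1 and so integrins, read 11.21 in B6 and 9.07, 8.89 and 9.56 in the Sf arrays and fell by 2.03 ± 0.43, 4.09-fold (adjusted p = 0.043). Pik3r5, a regulatory subunit of a phosphoinositide kinase, read 9.49 in B6 and 7.32, 7.20 and 8.01 in the Sf arrays and fell by 1.98 ± 0.38, 3.94-fold (adjusted p = 0.027). In these 3 genes Sf 2 was the lowest array. Tet1, an enzyme that oxidises methylated cytosine in DNA, read 7.89 in B6 and 5.72, 5.27 and 6.39 in the Sf arrays and fell by 2.10 ± 0.44, 4.29-fold (adjusted p = 0.0437). St8sia1, which makes the ganglioside GD3, read 10.30 in B6 and 8.26, 8.11 and 8.90 in the Sf arrays and fell by 1.88 ± 0.34, 3.68-fold (adjusted p = 0.0246). Sf 3 was the array nearest to B6 in both. Adjusted p-values are those of limma.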
